A study of Mus musculus with 11 samples.

Results

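Lcn2, Reg3b, Reg3g, Duox2, Duoxa2, Pigr, Nfkbia, Nfkbiz, Tnfaip2 and Tnfaip3 are 10 genes that the intestinal epithelium uses in its response to microbes and in feedback on NF-kB signalling. They were chosen by name for these roles and not by a rule on their measured values, although earlier results of these data were known. All 10 were among the 37310 gene identifiers of the count tables, and all 10 were among the 14172 genes with enough reads to be tested.

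RNA had been sequenced in bulk from 11 cultures of mouse intestinal organoids, which are self-organising epithelial structures grown from crypts in a basement membrane gel, here passaged every 7 days. The late group held passages 11, 12 and 13 of the animals mouse_285 and mouse_283 (n = 6 libraries). The early group held passages 2 and 4 of mouse_285 and passages 2, 3 and 4 of mouse_283 (n = 5 libraries). Every library carried the genotype Lgr5-EGFP-IRES-creERT2, a knock-in at the stem cell gene Lgr5 that reports its activity and encodes an inducible Cre, and no agent or further allele is named. The growth protocol names donors aged 4 and 24 months without tying an age to either animal, so ages were not compared. The labels give the tissue as small intestine epithelium, while the protocol also describes colon, and no library is assigned to a region. With 2 animals behind all libraries, p-values measure the spread between libraries and not between mice. A culture or sequencing batch is named for no library, and batch therefore cannot be told apart from stage.

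Epithelial cells read microbial products and cytokines through Toll-like, NOD, IL-1, IL-17 and TNF receptors, whose adaptors activate the IKK kinase complex. IKK marks IkB proteins for destruction, which frees NF-kB dimers to enter the nucleus and switch on cytokine, antimicrobial and feedback genes. The feedback genes then restrain the pathway, as IkB alpha (Nfkbia) does by binding NF-kB again and A20 (Tnfaip3) by editing ubiquitin chains on upstream signalling proteins. In the gut the same tissue response also draws on IL-22 and STAT3, releases antimicrobial proteins such as lipocalin-2 and the REG3 lectins, makes hydrogen peroxide through DUOX2 and carries IgA to the lumen through the polymeric immunoglobulin receptor.

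The stretches before the start sites are shown for genes that differ in what their promoters hold and in how their levels behaved. Windows run from 250 bases before to 50 bases after a RefSeq start site and are credited to RefSeq on build GRCm38.p6, a later build than the mm9 of the counts. A window was found for 9 of the 10 genes, with Nfkbiz the one that had none. Capitals mark matches to the NF-kB consensus, a site of 10 bases, or to the STAT palindrome TTCNNNGAA, each searched on both strands. The motifs do not overlap each other in these windows. The windows of the feedback genes Nfkbia (chr12:55492598-55492897, minus strand) and Tnfaip3 (chr10:19015361-19015660, minus strand) and of Reg3g (chr6:78468825-78469124, minus strand) hold NF-kB matches, that of Reg3b (chr6:78370635-78370934, plus strand) holds a STAT match, and that of Lcn2 (chr2:32387690-32387989, minus strand) holds neither.
Nfkbia: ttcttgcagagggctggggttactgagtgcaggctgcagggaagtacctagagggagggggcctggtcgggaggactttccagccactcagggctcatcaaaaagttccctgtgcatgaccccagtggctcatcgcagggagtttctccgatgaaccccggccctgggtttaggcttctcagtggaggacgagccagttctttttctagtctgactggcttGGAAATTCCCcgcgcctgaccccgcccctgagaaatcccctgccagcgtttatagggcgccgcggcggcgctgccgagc
Tnfaip3: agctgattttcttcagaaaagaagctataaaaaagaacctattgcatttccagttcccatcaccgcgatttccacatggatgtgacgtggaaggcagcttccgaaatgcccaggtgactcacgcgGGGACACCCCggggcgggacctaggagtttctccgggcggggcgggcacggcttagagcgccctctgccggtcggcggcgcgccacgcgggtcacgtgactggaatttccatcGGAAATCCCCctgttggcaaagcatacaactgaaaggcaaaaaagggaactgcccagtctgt
Reg3g: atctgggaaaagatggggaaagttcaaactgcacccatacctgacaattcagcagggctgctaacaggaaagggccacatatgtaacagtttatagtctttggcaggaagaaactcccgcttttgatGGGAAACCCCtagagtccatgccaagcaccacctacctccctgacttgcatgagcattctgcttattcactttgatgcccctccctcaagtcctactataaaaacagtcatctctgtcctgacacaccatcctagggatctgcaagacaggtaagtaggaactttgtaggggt
Reg3b: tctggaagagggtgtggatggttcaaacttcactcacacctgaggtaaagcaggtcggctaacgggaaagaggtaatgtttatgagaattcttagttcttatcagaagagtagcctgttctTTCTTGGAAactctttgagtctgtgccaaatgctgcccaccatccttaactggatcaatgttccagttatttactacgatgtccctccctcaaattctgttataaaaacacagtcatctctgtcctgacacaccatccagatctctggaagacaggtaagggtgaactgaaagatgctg
Lcn2: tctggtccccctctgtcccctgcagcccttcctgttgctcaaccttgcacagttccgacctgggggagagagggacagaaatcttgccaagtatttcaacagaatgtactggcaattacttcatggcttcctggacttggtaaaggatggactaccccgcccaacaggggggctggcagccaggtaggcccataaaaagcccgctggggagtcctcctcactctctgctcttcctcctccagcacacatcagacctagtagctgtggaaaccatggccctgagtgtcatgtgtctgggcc
The NF-kB match of Nfkbia began 29 bases before the start site, those of Tnfaip3 125 and 12 bases before it, and that of Reg3g 123 bases before it. The STAT match of Reg3b began 129 bases before the start site. Of the 9 genes with a window, 3 held an NF-kB match and 2 a STAT match, the second being Pigr downstream of its start. Tnfaip3 had a further window, not shown (chr10:19011914-19012213, minus strand), without a match to either motif. These counts are per gene, while the following shares are per window. Among all 32817 promoter windows in the table, 4.5% held the NF-kB consensus and 8.29% the STAT palindrome. A match describes letters in a window and says nothing of binding, and a window without one says nothing of the factor.

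Libraries held 15114132 to 28949911 reads in genes, so that 3 reads correspond to 0.104 to 0.198 CPM, which are read counts scaled to the size of the library, and this limit covers counting error only. Passages 3 and 4 of mouse_283 differed from the other 9 libraries in how levels depended on base composition, with log2 slopes of 0.974 and 0.778 for each 10 points of GC content, while the remaining slopes lay between -0.408 and 0.199. Values of the 10 genes, and of named genes of the wider lists where they moved by over 1.5 times, are therefore given with and without these 2 early libraries. The epithelial markers Epcam, Cdh1 and Vil1 were high in every library, with Epcam at 613 to 1230 CPM. Of leukocyte markers, Cd3g and Cd8a had no read anywhere, Ptprc reached 0.033 CPM in 1 library, and the 15 listed genes summed to 7.739 to 14.02 CPM in late and 10.3 to 23.2 CPM in early libraries. Most of that sum was Itgam, at 5.43 to 9.52 CPM in late and 3.40 to 13.5 CPM in early libraries, except at passage 3 of mouse_283. There Itgam had 3.40 CPM and the macrophage gene Cd68 6.36 CPM. Cd68 had 1.56 to 3.88 CPM in late and 2.45 to 7.501 CPM in early libraries. The highest Cd68 levels were in the early libraries of mouse_283 (7.501, 6.36 and 4.11 CPM at passages 2, 3 and 4), which are also the libraries with high Lcn2. Of the same list, Csf1r was also highest at passage 2 of mouse_283 (0.732 CPM). In contrast, Adgre1 had no read in mouse_283 and at most 0.113 CPM in mouse_285, and Ptprc had none in any early library. The part of leukocytes in the results was not tested. The 4 leukocyte markers with enough reads to be tested had negative values late against early and none passed the threshold, with Cd68 at -0.79 on the log2 scale (SE 0.30, edgeR adjusted p = 0.151). The 10 stromal markers summed to 1.04 to 2.92 CPM in late and 2.38 to 5.18 CPM in early libraries, with Dcn and Lum at 0 in all. Enterocyte markers summed to 1897 to 2761 CPM in late and 3223 to 4325 CPM in early libraries, and 5 of 10 fell late against early at an adjusted p under 0.05 in edgeR's quasi-likelihood test (Apoa1, Apoa4, Lct, Anpep and Slc5a1), against 2.34% of all genes lower. No goblet (7 listed), Paneth (7) or stem cell (5) marker passed the test late against early. With passages 3 and 4 of mouse_283 left out, 7 of 10 enterocyte markers fell, 4 of 7 Paneth markers (Defa17, Defa21, Defa24 and Lyz1) and the stem cell marker Ascl2 rose, and no goblet marker passed, against 3.24% of all genes lower and 1.35% higher in that fit. In bulk RNA, fewer cells of a type and less RNA per cell cannot be told apart, and the part of cell makeup in the results below was not tested.

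Per kilobase of transcript, the mean levels in late libraries ran from Pigr (246.5 CPM per kb) over Nfkbia (36.0), Nfkbiz (4.31), Tnfaip3 (2.87), Tnfaip2 (1.46), Duox2 (1.36), Reg3g (1.34), Reg3b (1.03) and Duoxa2 (0.803) to Lcn2 (0.0564). In early libraries the order began with Pigr (200.3 CPM per kb), Nfkbia (47.9), Nfkbiz (3.86) and Tnfaip3 (2.95), went on with Reg3b (2.75), Tnfaip2 (2.69), Duox2 (2.47), Reg3g (2.20) and Duoxa2 (1.57), and again ended with Lcn2 (1.14). Pigr and Nfkbia did not overlap in range over the late libraries, nor did Nfkbia and Nfkbiz, nor Tnfaip3 and Tnfaip2, and all other late neighbours overlapped. Over the early libraries the one pair of neighbours without overlap was Nfkbia and Nfkbiz. These levels used the longest annotated transcript of a later annotation (GENCODE M21) and are a description only. That transcript has 2089 bases for Reg3g and 783 for Reg3b. Before division by length, Reg3g had the higher mean at both stages. It had 2.795 CPM against 0.809 CPM for Reg3b in late libraries, and 4.59 against 2.15 CPM in early libraries.

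Late against early, 3 of the 10 genes fell and none rose at an adjusted p under 0.05 (edgeR's quasi-likelihood test with Benjamini-Hochberg adjustment over all 14172 genes, animal in the model). They were Lcn2, Reg3b and Tnfaip2. Lcn2 had passed the filter on low counts through the early libraries of mouse_283 alone, so the filter itself favoured its fall in this and the following counts. The background share of genes past this threshold was 3.05% in either direction, 2.34% lower and 0.706% higher. Fitted log2 changes were negative for 8 genes and positive for Pigr and Nfkbiz, with a median of -0.82 over the 10 genes and -0.02 over all genes tested. At an unadjusted p under 0.05 the count was 5 of 10, with Reg3g and Duox2 added, against 23.6% of all genes. Lcn2 and Tnfaip2, 2 of 10, fell when passages 3 and 4 of mouse_283 were left out, against 3.24% of all genes lower in that fit. DESeq2 called the same 3 genes as the full fit, but it called 848 of all genes lower, against 332 in the full fit. Library size alone in place of TMM factors called none of the 10. The share of all genes called under that scaling is not given here, so this count is not set against a background. That scaling moved the median of all genes to 0.113 from -0.02.

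**Figure D1:**
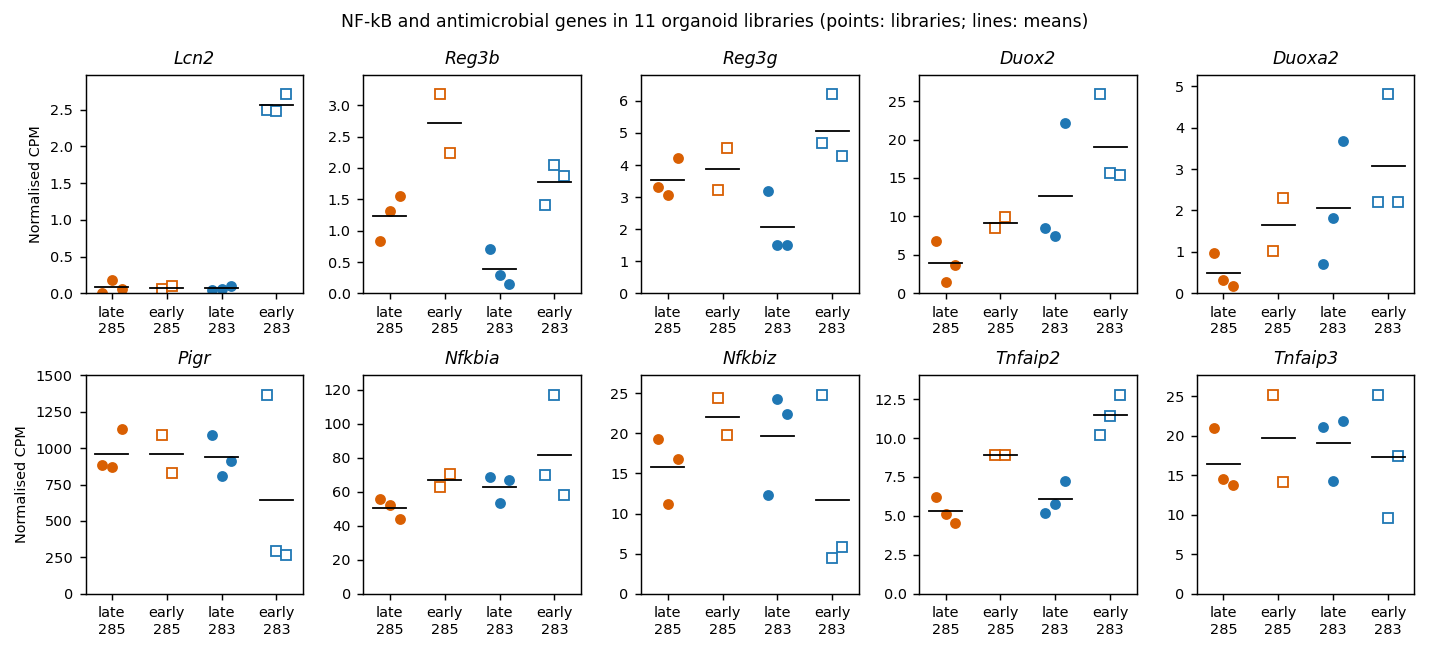
Normalised CPM (linear axis from 0) of the 10 genes in each library, with late (filled circles) left of early (open squares) for mouse_285 and then mouse_283. Horizontal lines are means of 2 or 3 libraries. Lcn2 stands at 2.48 to 2.71 CPM in the early libraries of mouse_283 and at or below 0.187 CPM in every other library, and Pigr and Nfkbiz each have 2 low early libraries in mouse_283.

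Lcn2 (ENSMUSG00000026822.9), which encodes lipocalin-2, a secreted protein that withholds iron from bacteria by binding their siderophores, exceeded the limit of 3 reads in the early libraries of mouse_283 and in no other library. In mouse_285 Lcn2 had 0, 0.187 and 0.0620 CPM at passages 11, 12 and 13, against 0.0567 and 0.102 CPM at passages 2 and 4. In mouse_283 Lcn2 had 0.0468, 0.0653 and 0.103 CPM at passages 11, 12 and 13, against 2.50, 2.48 and 2.71 CPM at passages 2, 3 and 4. The early libraries of mouse_283 thus stood alone, and the other 8 libraries held 0 to 3 reads each, which is at or under the limit of 3 reads. In reads, mouse_283 gave 1, 2 and 2 late against 41, 46 and 75 early. Over both animals Lcn2 fell by 3.72 on the log2 scale (SE 0.84, edgeR adjusted p = 0.0333), a fitted value that rests on late counts near 0. Within mouse_283 it fell by 5.07 (SE 0.69, adjusted p = 0.00509), as the only one of the 10 genes past the threshold there, against a background of 1.42% of all genes. Lcn2 had passed the filter on low counts through those 3 early libraries alone, so it had to differ there, and it was not tested under a filter of at least 1 CPM in 5 libraries. Within mouse_285 no fold is given because both stages lay at the limit of detection, so a difference there was not detectable at this depth.

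For Lcn2 the interaction of stage and animal had an unadjusted p of 0.00304 and an adjusted p of 0.990 (edgeR quasi-likelihood). With mouse_285 at the limit of detection at both stages, the term does not show whether the stages differ by another amount there. None of the 14172 genes, and so none of the 10, passed that adjusted test (background 0%), while 302 (2.13%) had an unadjusted p under 0.05 and DESeq2 called 16. Without passage 2 of mouse_283 the interaction term passed for Lcn2, with the same limit, and for Pigr and Nfkbiz (adjusted p = 0.0305, 0.00389 and 0.00421), in a fit that called 2315 genes and in which passages 3 and 4 were the only early libraries of mouse_283. Without passages 3 and 4 of mouse_283 the stage difference of Lcn2 was -3.43 (adjusted p = 0.0405), and with GC content and length in the model it was -3.57 (adjusted p = 0.0206). The call did not survive leaving out passage 3 of mouse_283 (adjusted p = 0.0553), passage 4 of mouse_285 (0.0571), passages 11, 12 or 13 of mouse_283 (0.131, 0.143 and 0.127) or passages 11 or 13 of mouse_285 (0.0707 and 0.0522). An exact two-sided permutation of stage labels within the animals gave p = 0.045 for Lcn2, where 200 rearrangements allow 0.005 at the smallest.

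Reg3b (ENSMUSG00000071356.4) encodes a secreted C-type lectin of the intestinal epithelium with antibacterial activity in the mouse. In mouse_285 Reg3b had 0.838, 1.31 and 1.55 CPM at passages 11, 12 and 13, against 3.17 and 2.25 CPM at passages 2 and 4. In mouse_283 Reg3b had 0.702, 0.294 and 0.155 CPM at passages 11, 12 and 13, against 1.40, 2.05 and 1.88 CPM at passages 2, 3 and 4. Late libraries lay below early libraries of the same animal in both animals, a pattern that 5.44% of all genes showed. Reg3b averaged 0.809 ± 0.549 CPM in late (SD, n = 6) and 2.15 ± 0.651 CPM in early libraries (SD, n = 5). It fell by 1.70 on the log2 scale (SE 0.39, edgeR adjusted p = 0.0365), with -1.14 (SE 0.53) within mouse_285 and -2.20 (SE 0.52) within mouse_283. Neither within-animal value passed on its own (adjusted p = 0.935 and 0.0684), and within mouse_285 none of the 10 genes did, against a background of 0%. The exact permutation within animals gave the smallest p it allows, 0.005.

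Without passages 3 and 4 of mouse_283 the fall of Reg3b was 1.40 on the log2 scale and missed the threshold (edgeR adjusted p = 0.0722), and it also missed it with the animal left out of the model (-1.43, adjusted p = 0.107). With GC content and length in the model the value was -1.98 (adjusted p = 0.0116). Leaving out a single library kept the Reg3b call for passage 2 of mouse_283 (adjusted p = 0.0160) and passage 13 of mouse_285 (0.0479). For the other 9 the adjusted p lay between 0.0542 without passage 4 of mouse_283 and 0.108 without passage 12 of mouse_283, with values of -1.91 to -1.48.

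Reg3g (ENSMUSG00000030017.1) encodes REG3 gamma, a lectin known in mice to kill Gram-positive bacteria near the mucosa. In mouse_285 Reg3g had 3.31, 3.06 and 4.22 CPM at passages 11, 12 and 13, against 3.23 and 4.54 CPM at passages 2 and 4. In mouse_283 Reg3g had 3.18, 1.501 and 1.501 CPM at passages 11, 12 and 13, against 4.70, 6.20 and 4.30 CPM at passages 2, 3 and 4. The stages overlapped in mouse_285 and did not overlap in mouse_283, where 9.46% of all genes had every late library below every early one. The stage value over both animals was -0.79 (SE 0.31) and missed the threshold (edgeR adjusted p = 0.165), and its exact permutation p, not adjusted, was 0.03. It was -0.57 without passages 3 and 4 of mouse_283 (edgeR adjusted p = 0.349). The 2 lectins are alike in sequence, with 65.9% identity over 340 aligned columns and a longest identical run of 17 bases. Whether reads of one gene were counted for the other was not tested. Reads of Reg3g over those of Reg3b ran from 2.33 to 9.67 in late and from 1.02 to 3.35 in early libraries. The highest ratio, at passage 13 of mouse_283, was 29 reads over 3, with Reg3b at the limit of 3 reads.

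Duox2 (ENSMUSG00000068452.6) encodes the NADPH oxidase that releases hydrogen peroxide at the apical surface, and Duoxa2 (ENSMUSG00000027225.7) its maturation factor, without which the oxidase does not leave the endoplasmic reticulum. Their RefSeq start sites lie 673 bases apart on opposite strands of chromosome 2 in GRCm38.p6. In mouse_285 Duox2 had 6.79, 1.498 and 3.72 CPM at passages 11, 12 and 13, against 8.44 and 9.96 CPM at passages 2 and 4. In mouse_283 Duox2 had 8.52, 7.41 and 22.1 CPM at passages 11, 12 and 13, against 25.9, 15.7 and 15.4 CPM at passages 2, 3 and 4. The stages did not overlap in mouse_285, as for 18.3% of all genes, whereas passage 13 of mouse_283 lay within its early range. The stage value of Duox2 was -0.85 (SE 0.38) and missed the threshold (edgeR adjusted p = 0.200), except without a filter on low counts (adjusted p = 0.0413). Without passages 3 and 4 of mouse_283 the value was -1.12 (adjusted p = 0.127).

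Duoxa2 had lower levels than Duox2 in every library. In mouse_285 Duoxa2 had 0.964, 0.312 and 0.186 CPM at passages 11, 12 and 13, against 1.02 and 2.30 CPM at passages 2 and 4. In mouse_283 Duoxa2 had 0.702, 1.83 and 3.67 CPM at passages 11, 12 and 13, against 2.20, 4.80 and 2.20 CPM at passages 2, 3 and 4. Again the stages did not overlap in mouse_285, as for 18.3% of all genes, and overlapped in mouse_283. Its stage value was -1.03 (SE 0.51, edgeR adjusted p = 0.230) with all libraries and -1.05 (adjusted p = 0.354) without passages 3 and 4 of mouse_283, and passage 13 of mouse_285 rested on 3 reads. Reads of Duox2 over those of Duoxa2 ranged from 4.05 (passage 12 of mouse_283) upward in late libraries, to 60 reads over 3 at passage 13 of mouse_285, and from 3.27 to 11.8 in early libraries, so that the 2 genes did not keep a fixed ratio. Duoxa2 overlaps Duoxa1 on the opposite strand by 694 bases, and because the counts are unstranded their reads cannot be told apart there. Duoxa1 itself had at most 0.228 CPM in any library.

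Pigr (ENSMUSG00000026417.7) encodes the polymeric immunoglobulin receptor, which carries dimeric IgA across the epithelium, and was the most abundant of the 10 genes. In mouse_285 Pigr had 882, 868 and 1131 CPM at passages 11, 12 and 13, against 1092 and 831 CPM at passages 2 and 4. In mouse_283 Pigr had 1088, 811 and 912 CPM at passages 11, 12 and 13, against 1367, 296 and 269 CPM at passages 2, 3 and 4. The 2 libraries that stand apart by GC content were thus the only low ones, and the remaining 9 lay between 811 and 1367 CPM. The stage value was 0.30 (SE 0.37, edgeR adjusted p = 0.609) with all libraries and -0.22 (adjusted p = 0.501) without those 2. It was 0.81 (adjusted p = 0.0538) without passage 2 of mouse_283 and 0.085 (adjusted p = 0.895) without passage 4 of mouse_283.

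**Figure D2:**
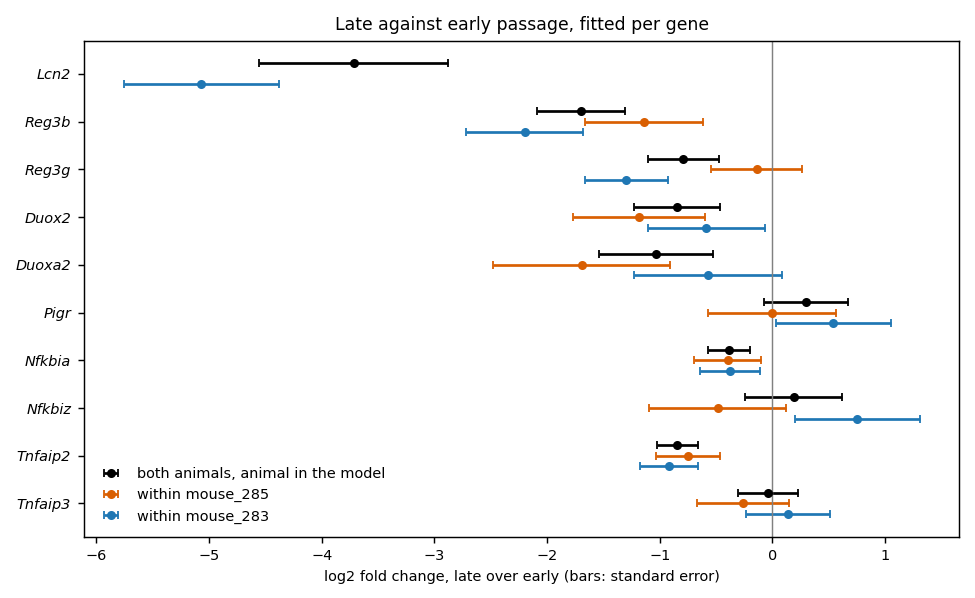
Log2 fold change of late over early per gene (points) with its standard error (bars), from the fit over both animals (black) and within mouse_285 (orange) and mouse_283 (blue). Lcn2 within mouse_285 is left out because both stages lay at the limit of detection. Lcn2, Reg3b and Tnfaip2 passed the threshold over both animals, and Nfkbiz has a value of -0.48 within mouse_285 and of 0.75 within mouse_283 with all libraries.

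Of the NF-kB feedback genes, Tnfaip2 (ENSMUSG00000021281.8), a gene induced by TNF whose protein acts in the formation of membrane protrusions, was the one that fell. In mouse_285 Tnfaip2 had 6.20, 5.12 and 4.53 CPM at passages 11, 12 and 13, against 8.89 and 8.94 CPM at passages 2 and 4. In mouse_283 Tnfaip2 had 5.20, 5.77 and 7.24 CPM at passages 11, 12 and 13, against 10.2, 11.4 and 12.8 CPM at passages 2, 3 and 4. All 6 late libraries lay below all 5 early libraries, which holds for 3.51% of all genes and for no other of the 10. Tnfaip2 averaged 5.68 ± 0.960 CPM in late (SD, n = 6) and 10.4 ± 1.67 CPM in early libraries (SD, n = 5). The log2 fall was 0.84 (SE 0.18, edgeR adjusted p = 0.0287), with -0.75 (SE 0.28) within mouse_285 and -0.92 (SE 0.26) within mouse_283, and the interaction term was 0.17 (SE 0.38, adjusted p = 0.990). The exact permutation within animals gave p = 0.005, the smallest it allows.

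Tnfaip2 kept its call without passages 3 and 4 of mouse_283 (-0.75, edgeR adjusted p = 0.0384) and with GC content and length in the model (-0.60, adjusted p = 0.0390). It lost the call without passage 4 of mouse_285 (adjusted p = 0.0804), without passages 11, 12 or 13 of mouse_283 (0.0945, 0.0859 and 0.0623) or without passages 12 or 13 of mouse_285 (0.0796 and 0.0710), at values of -0.91 to -0.79, and without a filter on low counts (0.0527). The annotation lists the antisense gene Gm40578 over Tnfaip2, which was not counted here, and unstranded reads of the pair cannot be told apart.

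Nfkbia (ENSMUSG00000021025.7) encodes IkB alpha, the inhibitor that NF-kB induces against itself. In mouse_285 Nfkbia had 55.6, 51.9 and 44.0 CPM at passages 11, 12 and 13, against 62.8 and 70.4 CPM at passages 2 and 4. In mouse_283 Nfkbia had 68.7, 53.5 and 66.9 CPM at passages 11, 12 and 13, against 69.7, 117 and 58.3 CPM at passages 2, 3 and 4. The stages did not overlap in mouse_285, as for 18.3% of all genes, and overlapped in mouse_283, where passage 3 was far above the rest. The stage value was -0.38 (SE 0.19, edgeR adjusted p = 0.227), negative in all 19 alternatives and past the threshold in none. Leaving out passages 3 and 4 of mouse_283 gave -0.30 (adjusted p = 0.249).

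Nfkbiz (ENSMUSG00000035356.9) encodes IkB zeta, a nuclear cofactor that NF-kB needs for a subset of its targets. In mouse_285 Nfkbiz had 19.3, 11.2 and 16.8 CPM at passages 11, 12 and 13, against 24.4 and 19.8 CPM at passages 2 and 4. In mouse_283 Nfkbiz had 12.4, 24.2 and 22.4 CPM at passages 11, 12 and 13, against 24.8, 4.48 and 5.85 CPM at passages 2, 3 and 4. The late libraries of mouse_285 lay below its early ones, as for 18.3% of all genes, and the stages overlapped in mouse_283. As with Pigr, passages 3 and 4 of mouse_283 were the 2 lowest libraries of all. The stage value was 0.19 (SE 0.43, edgeR adjusted p = 0.789) with them and -0.42 (adjusted p = 0.313) without them.

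Tnfaip3 (ENSMUSG00000019850.5) encodes the ubiquitin-editing enzyme A20. In mouse_285 Tnfaip3 had 21.0, 14.5 and 13.7 CPM at passages 11, 12 and 13, against 25.2 and 14.2 CPM at passages 2 and 4. In mouse_283 Tnfaip3 had 21.2, 14.3 and 21.9 CPM at passages 11, 12 and 13, against 25.1, 9.54 and 17.4 CPM at passages 2, 3 and 4. The stages overlapped in both animals, and the stage value was -0.04 (SE 0.27, edgeR adjusted p = 0.933), or -0.31 (adjusted p = 0.459) without passages 3 and 4 of mouse_283. The sign of this value turned under library size alone, to 0.05, so no direction is given.

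Between the animals, with the stage in the model, none of the 10 genes passed the threshold, against a background of 0.0776% (11 of 14172 genes, all lower in mouse_285). At an unadjusted p under 0.05 the count was 4, against 5.15% of all genes, and these were Lcn2, Reg3b, Duox2 and Duoxa2. Duox2 had a fitted log2 difference of -1.37 (SE 0.39, edgeR adjusted p = 0.391) for mouse_285 over mouse_283. In late libraries it averaged 4.00 ± 2.66 CPM in mouse_285 and 12.7 ± 8.18 CPM in mouse_283 (SD, n = 3 each). In early libraries it averaged 9.20 ± 1.07 CPM in mouse_285 (SD, n = 2) and 19.0 ± 5.94 CPM in mouse_283 (SD, n = 3). Every library of mouse_285 lay below every library of mouse_283 at the same stage, as for 0.91% of all genes. DESeq2 called the difference of Duox2 (adjusted p = 0.0419), in a fit that called 126 genes. Without a filter on low counts edgeR called Lcn2, Duox2 and Duoxa2 between the animals (adjusted p = 0.00799, 0.000235 and 0.0198). That fit called 207 genes in all, against 11 with the filter. Duoxa2 differed by -1.45 (SE 0.52, adjusted p = 0.649), whereas Reg3b was higher in mouse_285, by 1.14 (SE 0.39, adjusted p = 0.604). For Reg3b every library of mouse_285 lay above every library of mouse_283 at the same stage, as for 0.593% of all genes. Lcn2 differed by -3.01 (SE 0.94, adjusted p = 0.494), a value that rests on the early libraries of mouse_283.

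A trend with passage number within a stage was past the threshold for none of the 10 genes and none of the 14172 genes (background 0%), and no gene of the 10 had an unadjusted p under 0.05 in that edgeR test, against 911 of all genes (6.43%). DESeq2 likewise called no gene for the trend. The plot of levels by passage shows the values behind this for 4 of the genes.

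**Figure D3:**
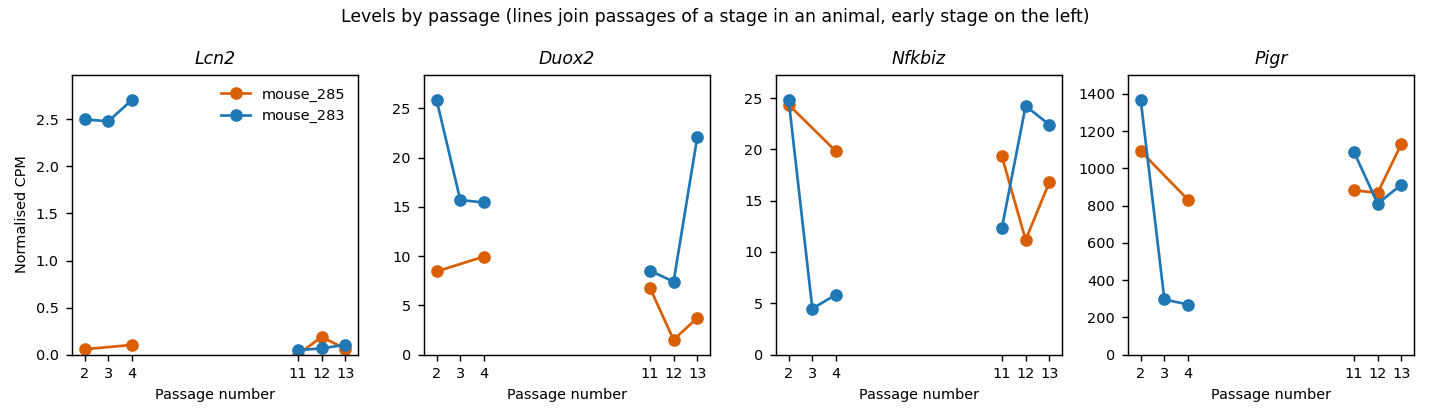
Normalised CPM (linear axis from 0) of Lcn2, Duox2, Nfkbiz and Pigr against passage number in mouse_285 (orange) and mouse_283 (blue), with lines joining the passages of one stage. Nfkbiz and Pigr drop at passages 3 and 4 of mouse_283, to 4.48 and 5.85 CPM for Nfkbiz and to 296 and 269 CPM for Pigr, while Duox2 reaches 22.1 CPM at passage 13 of mouse_283.

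The genes whose levels followed those of Lcn2, Pigr and Nfkbia most closely over the 11 libraries were sought among genes averaging at least 5 CPM, as a description. For Lcn2 they included Zdhhc9 (r = 0.933) and Tmem50b (r = 0.910), of which Zdhhc9 ran from 82.2 to 97.9 CPM in late libraries and reached 115, 125 and 127 CPM in the early libraries of mouse_283. For Pigr they were Rapgef2 (r = 0.991), Nepro (r = 0.990) and Rybp (r = 0.984), and for Nfkbia they were Afmid (r = 0.972), Car9 (r = 0.968) and Sprr2a3 (r = 0.957). Rapgef2 had 6.96 and 6.32 CPM at passages 3 and 4 of mouse_283, against 12.0 CPM or more elsewhere, and Car9 had its highest value, 604 CPM, at passage 3 of mouse_283. All values of a library share its depth and its trend with GC content. Lcn2 lay at or under the limit of 3 reads outside the early libraries of mouse_283. Its correlations therefore mainly set those libraries against the rest.

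The wider pathway was followed in 8 lists of 135 further genes, of which 134 were found and 97 tested. Late against early 3 of the 97 rose and 3 fell, where the background was 0.706% higher and 2.34% lower. The counts turned on single libraries and on the filter: 16 rose and 26 fell without passage 2 of mouse_283, 10 rose and 10 fell without a filter on low counts, and none rose without passage 4 of mouse_285 or without passage 12 or 13 of mouse_283. Between the animals none of the 97 passed the threshold, against 0.0776% of all genes, and the smallest p belonged to Il17re (-0.99 for mouse_285 over mouse_283, SE 0.22, edgeR adjusted p = 0.181). The median log2 stage value of the 97 genes was -0.23, against -0.02 for all genes. It was -0.13 without passage 3 of mouse_283, alone or together with passage 4, -0.079 with GC content and length in the model, and -0.093 with library size alone, where the median of all genes was 0.113. Of the upstream receptors and adaptors, 2 of 28 tested rose and none fell. They were Il18r1, a subunit of the IL-18 receptor, and Il17re, which forms the epithelial receptor for IL-17C. Il18r1 averaged 2.85 ± 0.424 CPM in late (SD, n = 6) and 0.918 ± 0.464 CPM in early libraries (SD, n = 5) and rose by 1.63 on the log2 scale (SE 0.34, edgeR adjusted p = 0.0221). Il17re rose by 0.98 (SE 0.22, adjusted p = 0.0335). The LPS receptor gene Tlr4 had a value of 2.25 (SE 0.67) and missed the threshold (edgeR adjusted p = 0.0911), with 1.42 (adjusted p = 0.208) without passages 3 and 4 of mouse_283. Early Tlr4 levels were 0.976 CPM at passage 2 of mouse_283 and 0.0511 to 0.170 CPM in the other early libraries. Those levels lie near the limit of 3 reads, so the fitted value of Tlr4 rests on low early counts. The adaptor Ticam1 also missed the threshold, at -0.72 (SE 0.21, adjusted p = 0.0888).

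None of 7 tested genes of the IKK complex and its activators, of 5 NF-kB subunit genes and of 17 other feedback genes passed the test. In the IKK list the smallest p belonged to Tab2, an adaptor of the kinase TAK1 (0.70, SE 0.34, edgeR adjusted p = 0.221, or 0.22 when passages 3 and 4 of mouse_283 were left out). The subunit Rela had a value of -0.61 (SE 0.23, edgeR adjusted p = 0.147), Nfkb2 of -0.59 (SE 0.22, adjusted p = 0.149), Relb of -0.48 (SE 0.22, adjusted p = 0.199) and Nfkb1 of 0.44 (SE 0.18, adjusted p = 0.164). At passages 3 and 4 of mouse_283 Rela had 192 and 113 CPM and Nfkb1 48.2 and 57.5 CPM, the highest library of all for Rela being passage 3 and the 2 lowest for Nfkb1 being these. Without these 2 libraries the values were -0.31 for Rela, -0.36 for Nfkb2, -0.22 for Relb and 0.21 for Nfkb1 (adjusted p from 0.314 to 0.512). Of the feedback genes, the smallest p belonged to Tollip, an adaptor that dampens IL-1 and Toll-like receptor signals (-0.41, SE 0.13, adjusted p = 0.104), and to Tnip1, a partner of A20 (-0.73, SE 0.26, adjusted p = 0.139, and -0.40 without those 2 libraries).

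Among cytokine, chemokine and other NF-kB target genes outside the 10, 1 of 14 tested fell and none rose. That gene, Cx3cl1, encodes the membrane-bound chemokine fractalkine and averaged 52.5 ± 4.23 CPM in late (SD, n = 6) and 111 ± 53.7 CPM in early libraries (SD, n = 5), a log2 fall of 1.08 (SE 0.26, edgeR adjusted p = 0.0438). The adhesion gene Icam1 had a value of -1.11 (SE 0.41) that missed the threshold (adjusted p = 0.146), and of -0.66 without passages 3 and 4 of mouse_283. The neutrophil chemokine gene Cxcl5 had 6.10, 0.108 and 2.09 CPM at passages 2, 3 and 4 of mouse_283 and at most 0.196 CPM in every other library, so that 2 early libraries of the animal with high Lcn2 stood out, and its stage value missed the threshold (adjusted p = 0.171). Il6 had no read in any library.

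Among 13 other tested antimicrobial genes 1 fell and none rose, with 8 negative and 5 positive stage values. Lypd8 encodes a protein that binds flagellated bacteria in the lumen and averaged 230 ± 15.3 CPM in late (SD, n = 6) and 467 ± 134 CPM in early libraries (SD, n = 5), a log2 fall of 0.99 (SE 0.17, edgeR adjusted p = 0.0109). Reg3a, the third REG3 lectin gene, had a value of -1.95 (SE 0.51) that missed the threshold (adjusted p = 0.0614), and of -1.28 without passages 3 and 4 of mouse_283 (adjusted p = 0.0793). The sequence of Reg3a is 72.3% identical to that of Reg3b, with a longest identical run of 24 bases. Nos2, the inducible nitric oxide synthase gene, had a value of -0.84 (SE 0.31, adjusted p = 0.148), and Zg16, a lectin gene of goblet cells, of -1.03 (SE 0.43, adjusted p = 0.183). Lyz1 had a positive value of 0.66 (SE 0.31, edgeR adjusted p = 0.213). Without passages 3 and 4 of mouse_283 Lyz1 rose by 1.14 (edgeR adjusted p = 0.003465). In that fit 1 of the 13 genes rose and 1 fell, against 1.35% of all genes higher and 3.24% lower. Retnlb, Saa1 and Saa2 had no read in any library.

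Of 3 tested NADPH oxidase genes besides the DUOX pair, Noxa1 fell and none rose. Noxa1, the activator subunit of NOX1, averaged 0.255 ± 0.137 CPM in late (SD, n = 6) and 1.71 ± 0.827 CPM in early libraries (SD, n = 5), a log2 fall of 2.76 (SE 0.48, edgeR adjusted p = 0.0109). Its late levels lay between 0.104 and 0.499 CPM, close to the limit of 3 reads, and Nox1 itself had at most 0.113 CPM in any library. Noxa1 passed the filter on low counts through its early libraries, so the filter itself favoured a fall. It was not tested under a filter of at least 1 CPM in 5 libraries. Cyba, a subunit shared by several NADPH oxidases, had 77.7 and 75.5 CPM at passages 3 and 4 of mouse_283 and 11.1 to 32.9 CPM elsewhere, with a stage value of -1.22 (SE 0.40) that missed the threshold (adjusted p = 0.118) and of -0.37 without those 2 libraries (adjusted p = 0.468). In the IL-22 and STAT3 list 1 of 10 tested genes rose. Fut2, a fucosyltransferase that IL-22 induces in mouse epithelium, averaged 8.05 ± 3.17 CPM in late (SD, n = 6) and 3.36 ± 0.862 CPM in early libraries (SD, n = 5), a log2 rise of 1.26 (SE 0.24, adjusted p = 0.0170). The kinase gene Tyk2 had a value of -0.39 (SE 0.15, adjusted p = 0.157) and Socs3, a feedback inhibitor that STAT3 induces, of 0.32 (SE 0.16, adjusted p = 0.243), both short of the threshold.

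**Figure D4:**
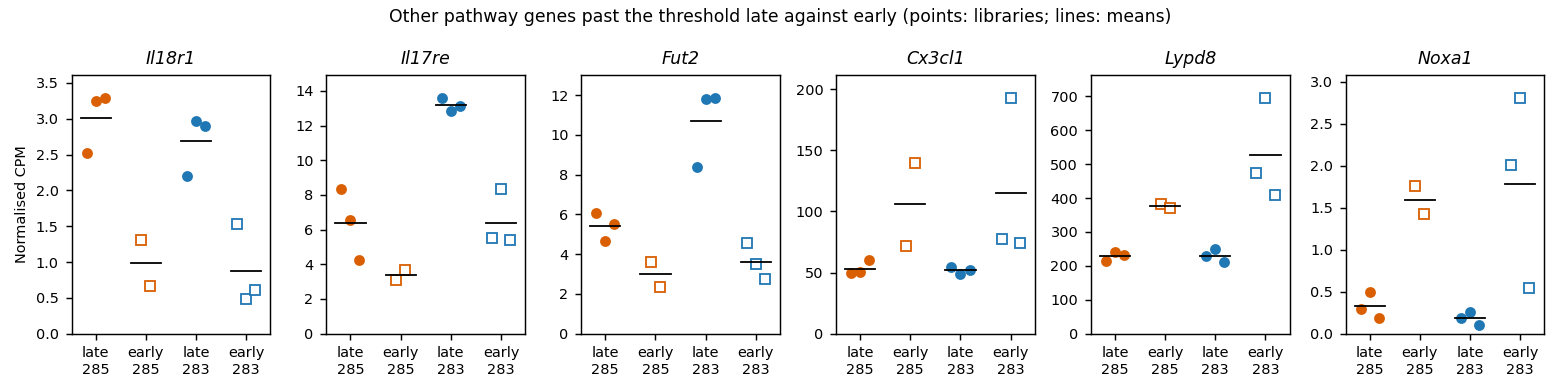
Normalised CPM (linear axis from 0) of the 6 pathway genes outside the 10 that passed the threshold, with late (filled circles) left of early (open squares) for mouse_285 and then mouse_283, and lines at the means. Il18r1, Il17re and Fut2 are higher late within each animal, and Cx3cl1, Lypd8 and Noxa1 are lower late within each animal.

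In each animal every late library lay above every early library for Il18r1, Il17re and Fut2, as for 3.99% of all genes, and below for Cx3cl1, Lypd8 and Noxa1, as for 5.44%. All 6 genes kept their call without passages 3 and 4 of mouse_283 and with GC content and length in the model. Lypd8 was past the threshold in all 19 alternatives. Noxa1 was past it in all 18 that gave a value, with the limit from the filter given above. Fut2 lost its call without passage 4 of mouse_285 (edgeR adjusted p = 0.0607) or passage 12 or 13 of mouse_283 (0.0508 and 0.0553). Il18r1 lost it without passage 4, 12 or 13 of mouse_285 (0.0805, 0.0569 and 0.0522) or passage 12 or 13 of mouse_283 (0.0664 and 0.0667). Il17re kept its call when passage 2 or 3 of mouse_283 or passage 13 of mouse_285 was left out, lost it without any of the other 8 (up to 0.0959, without passage 11 of mouse_283) and lost it with the animal out of the model (0.136). Cx3cl1 kept its call when passage 2 of either animal or passage 4 of mouse_283 was left out, and lost it without any of the other 8 (up to 0.194, without passage 4 of mouse_285).

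**Figure D5:**
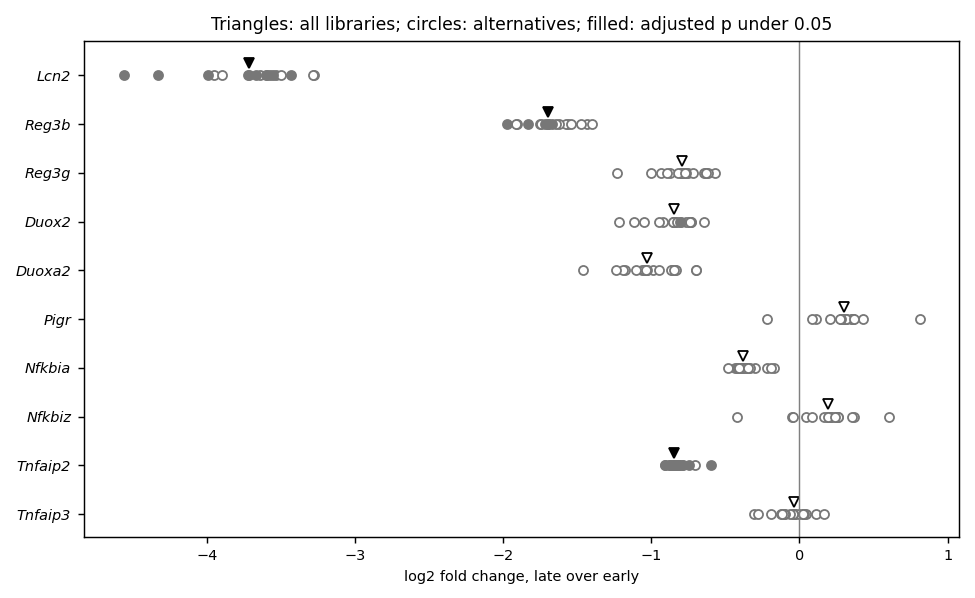
Log2 fold change of late over early for the 10 genes with all libraries (triangles) and under the alternatives (circles), filled where the adjusted p is under 0.05. Lcn2 was past the threshold in 10 of 18 alternatives, Reg3b in 7 of 19 and Tnfaip2 in 11 of 19, and every value of these genes lies left of 0.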

How the data were processed

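For 11 libraries the authors deposited gene-level read counts, with an unstranded column that was used here and a column per strand (first strand 50.0% to 50.2% of stranded reads). Per the submitters' processing notes, Trimmomatic and STAR were used with build mm9. The tool versions and the annotation release were not given in the sources used here. In each table's name the passage was higher by 1 than in the title, and titles were used. Summary lines were left out (unmapped reads 4.76% to 10.2%, multimapping 5.92% to 8.78%, in no gene 3.77% to 11.7%, ambiguous 3.11% to 4.03%). Of 37310 identifiers, 32620 had a symbol. No libraries were duplicates (smallest chi-square per degree of freedom 15.1).

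With R 4.3.3 and edgeR 4.0.16, filterByExpr kept 14172 genes, normalised by TMM and tested two-sided by quasi-likelihood with Benjamini-Hochberg adjustment at a threshold of 0.05. Models held animal and stage, their interaction, or a slope with passage number. CPM are normalised, and log2 CPM used a prior count of 2. The stages do not share replicate numbers in the labels, and libraries are tied across stages by the animal, which is therefore in the model. Alternatives were DESeq2 1.42.0, other scaling, other filters, no animal term, libraries left out, and offsets from splines (5 degrees of freedom) on GC content and length, known for 96.7% of tested genes. The procedure was tested on simulated data.

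The 10 genes and all lists were chosen with earlier results of these data known. Named were the 10 genes, list members past the threshold, up to 4 further per list by smallest p, and the 3 genes most like Lcn2, Pigr and Nfkbia, of which 1 is not reported here. The same alternatives for list members past the threshold, and the values of all list members without passages 3 and 4 of mouse_283, were added after seeing the data.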

Additional observations from a re-analysis of the deposited data

Results flagged for a closer look

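Of 20 groups of libraries checked, 1 per gene and stage, 2 held a library far from the others, and chance flags about 1 in 20. Duox2 had 22.1 CPM at passage 13 of mouse_283, far above the other 5 late libraries, which ended at 8.52 CPM. Duoxa2 was also highest of its late libraries there, at 3.67 CPM. Nfkbia had 117 CPM at passage 3 of mouse_283, far above the other 4 early libraries, which ended at 70.4 CPM. That library is one of the 2 that stand apart by GC content, and without it the stage value of Nfkbia was -0.19 on the log2 scale, against -0.38 with it, both short of the threshold in edgeR's quasi-likelihood test.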

How the results depend on the processing

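Lcn2, Reg3b and Tnfaip2 stayed lower late in every alternative that gave a value, and Lcn2 gave none with a filter of at least 1 CPM in 5 libraries. Library size alone called none of the 10 genes (0 against 3), with its share of all genes not given, and leaving out single libraries called 0 to 3. The number of genes past the threshold late against early, 432 (100 higher, 332 lower), was 1343 (495 and 848) with DESeq2, 1819 (1053 and 766) without a low-count filter, 651 without passages 3 and 4 of mouse_283 and 984 with GC content and length offsets, and 176 to 4864 with single libraries left out, the last without passage 2 of mouse_283. Between the animals, 11 became 126 (DESeq2), 4 (library size alone), 207 (no low-count filter), 2 (stage out of the model, no replicate block), 109 (without passages 3 and 4 of mouse_283), 40 (offsets) and 3 to 73 (single libraries). For the interaction, 0 became 16 (DESeq2), 65 (no low-count filter), 4 (without those passages), 1 (offsets) and 0 to 2315 (single libraries). The trend gave 0 in each.

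Leaving the animal out of the model (no replicate block) kept Lcn2 at -4.33 and Tnfaip2 at -0.88 past the threshold and lost Reg3b at -1.43 (edgeR adjusted p = 0.107). Signs turned for Tnfaip3 under library size alone (stage 0.045, animal 0.019) and in the permutation (0.0196). Without passages 3 and 4 of mouse_283 they turned for Pigr (stage -0.22, animal -0.13, interaction 0.54), Nfkbiz (stage -0.42, animal -0.26) and the interaction of Tnfaip3 (0.14). With single libraries left out, the stage value ranged from -0.19 to 0.16 for Tnfaip3 and -0.053 to 0.60 for Nfkbiz, the animal value of Tnfaip3 from -0.24 to 0.086, and the interaction from -1.23 to 0.066 for Duox2, -0.37 to 0.17 for Nfkbia and -0.76 to 0.073 for Tnfaip3. The causes of these shifts were not tested. Depth limits Lcn2, for which 8 libraries hold at most 3 reads.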
